A study of Arabidopsis thaliana with 6 samples.

Results

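The long-chain acyl-CoA synthetases LACS1 to LACS9 and the fatty acid exporter FAX1 were followed in Arabidopsis thaliana leaf cells supplied with the soybean oil regulator GmWRI1. These 10 loci were taken by name and grouped by the compartment of the enzyme, out of 21671 transcripts that had reads in any library. In the GmWRI1 group, Col-0 leaf mesophyll protoplasts (leaf cells freed of their walls) were transfected with 35S:GmWRI1, a plasmid in which the constitutive cauliflower mosaic virus 35S promoter drives the GmWRI1-A cDNA. In the mCHERRY group, protoplasts of the same ecotype were transfected with 35S:mCHERRY, which encodes a red fluorescent protein and served as the negative control. RNA was taken 16 h after transfection, with 3 libraries in each group. Expression was therefore transient and from a strong promoter in leaf cells that do not make seed oil, and the RNA came from the whole transfected batch. GmWRI1-A and mCHERRY RNA was not analysed here.

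Fatty acids are made in the plastid on acyl carrier protein (ACP), released there by acyl-ACP thioesterases, and carried across the envelope. FAX1 is a protein of the inner envelope that takes part in this export. Long-chain acyl-CoA synthetases then join a free fatty acid to coenzyme A, and the compartment of the enzyme bears on where the acyl-CoA is used. LACS9 is the synthetase of the plastid envelope. LACS1, LACS2, LACS4 and LACS8 are enzymes of the endoplasmic reticulum (ER), where membrane lipids, storage oil and the precursors of cutin and wax are built. LACS6 and LACS7 are peroxisomal and activate fatty acids for beta-oxidation, a step known from the breakdown of seed oil in seedlings. LACS3 and LACS5 act outside the plastid, and their location is less well established.

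WRINKLED1 factors bind the AW Box (CNTNGNNNNNNNCG, where N is any base), and the study also examined a CNC Box (CNCCNCC). Both motifs were searched on both strands in the 500 bases before and the 500 bases after the annotated start of each gene in RefSeq's TAIR10.1. The sites of LACS9, which rose with GmWRI1, and the AW Boxes of FAX1 and LACS4, which did not rise, are shown because the expression results turn on these genes. Capitals mark the motif and lower case marks 8 flanking bases on either side, and each is read 5′ to 3′ on the strand that carries the motif. The first is the AW Box upstream of LACS9 (chr1:29152530-29152543, plus strand, in the interval before this minus-strand gene), the second the CNC Box in the LACS9 5′ UTR (chr1:29152326-29152332, minus strand), and the third the AW Box in a coding exon of FAX1 (chr3:21194026-21194039, minus strand, within a plus-strand gene). The last 2 are the AW Boxes in a coding exon of LACS4 (chr4:12408158-12408171, minus strand, and chr4:12408137-12408150, plus strand), a minus-strand gene.
LACS9 upstream AW Box: ccaattctCATTGCACAAAACGctcttatt
LACS9 CNC Box: cgtctttcCGCCTCCacagtcct
FAX1 AW Box: tcatagggCATGGAAACGATCGgctttgga
LACS4 first AW Box: cggagtatCTTTGCCAAGGACGgatttccc
LACS4 second AW Box: atccattcCTTCGATCGGGTCGggaaatcc

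Within 500 bases after the start, 4 of the 10 loci held an AW Box, namely FAX1, LACS2, LACS3 and LACS4. LACS9 held none in that window, and its only AW Box within 500 bases began 148 bases before the start, at position -148. An AW Box was present in this downstream window in 39.5% of all 31345 nuclear gene models and in 61.9% of the 1392 genes with a full window that were up-regulated by the call defined below. In the upstream window it was present in 19.1% of all models and 23.5% of up-regulated genes. With 1000 bases after the start, LACS9 (position 650), LACS6 (position 554) and LACS7 (position 769) also held an AW Box. That made 7 of 10 loci, against 56.3% of all models and 79.0% of up-regulated genes in that longer window. A CNC Box lay within 500 bases after the start in LACS9 (position 63), LACS2, LACS7 and LACS6, where LACS6 held 5 matches in its coding sequence, 2 of them overlapping. The share with a CNC Box there was 48.0% of all models and 56.3% of up-regulated genes. LACS1, LACS5 and LACS8 held neither motif within 500 bases on either side. A match is a description of these letters and not evidence of binding.

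**Figure D1:**
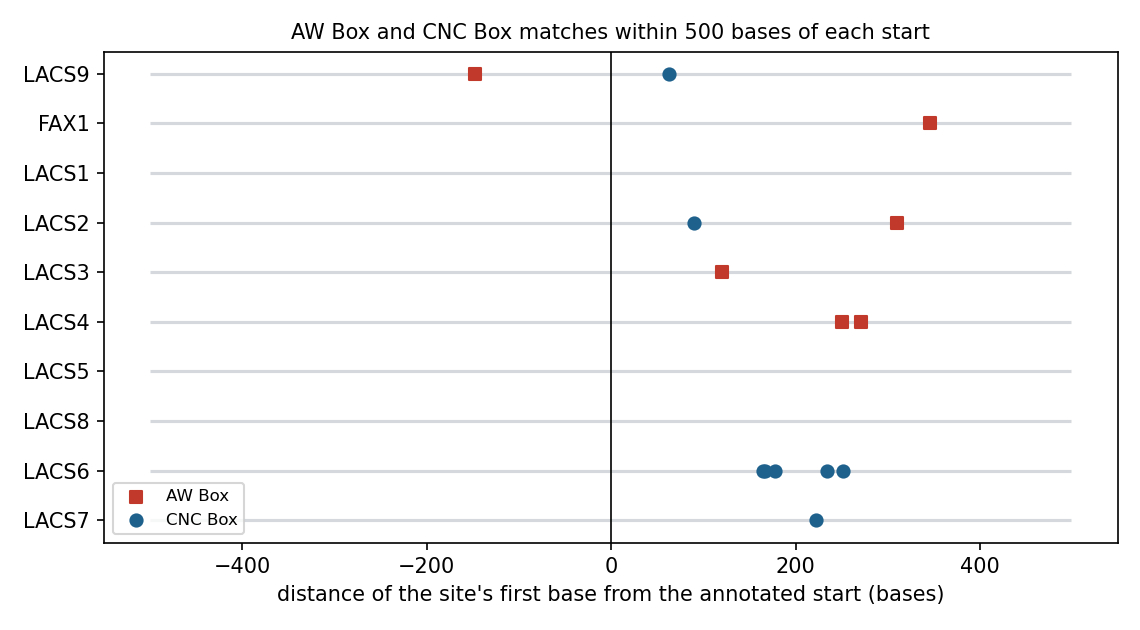
Position of each AW Box (squares) and CNC Box (circles) match in the 10 loci, as the distance in bases of the site's first base from the annotated start, with negative values before it. LACS9 has its AW Box at -148 and its CNC Box at 63, whereas the AW Boxes of FAX1, LACS2, LACS3 and LACS4 lie between 120 and 346 bases after the start.

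Libraries held 4155836 to 11748328 gene counts, so that a count of 0 allowed up to 0.255 to 0.722 CPM (the count relative to library size), for counting error only. Pearson correlations of log2 CPM across genes were 0.980 to 0.987 within groups and 0.907 to 0.933 between them, and no library stood apart from its group. The 5 mesophyll markers summed to 589 to 674 CPM in GmWRI1 and 207 to 222 CPM in mCHERRY libraries, and 3 of the 5 (the Rubisco small subunit gene RBCS1A, Rubisco activase RCA and the antenna gene LHCB2.1) were up-regulated by the call defined below, where 9.44% of all tested genes were. RBCS1A alone averaged 331.4 ± 32.6 CPM in GmWRI1 and 43.4 ± 5.68 CPM in mCHERRY libraries (SD, n = 3 each). LHCA1 was within the fold limit (log2 fold change 0.39, edgeR adjusted p = 0.0162), and CA1, a carbonic anhydrase, had overlapping groups (log2 fold change -0.15, edgeR adjusted p = 0.321). Summed levels were at most 1.79 CPM in GmWRI1 and 0.742 CPM in mCHERRY libraries for 4 epidermis markers, and at most 3.60 CPM in GmWRI1 and 2.27 CPM in mCHERRY libraries for 5 guard cell markers. They were at most 0.683 CPM with GmWRI1 and 1.14 CPM with mCHERRY for 5 vascular markers, and at most 0.138 CPM with GmWRI1 and 0.122 CPM with mCHERRY for 3 seed storage genes. The guard cell locus AT1G22690 and the seed storage gene SESA3 were at 0 in every library. The mesophyll markers thus did not move as one, and the part of the 3 that rose in the results below was not tested. In bulk RNA of this kind, more cells of a type and more RNA per cell cannot be told apart.

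To ask which LACS genes were in use in these cells, levels were scaled to transcript length (RPKM, from TMM-scaled CPM). LACS4 was the most abundant in GmWRI1 libraries at 102.2 ± 3.70 RPKM, with 119.3 ± 5.10 RPKM in mCHERRY libraries (SD, n = 3 each), and LACS7 followed at 101.5 ± 5.05 RPKM in GmWRI1 and 119.9 ± 1.54 RPKM in mCHERRY libraries. These 2 did not differ from each other beyond their spread in either group. LACS8 came next at 73.1 ± 4.16 RPKM in GmWRI1 and 79.3 ± 5.68 RPKM in mCHERRY libraries, and LACS6 had 59.5 ± 3.69 RPKM in GmWRI1 and 73.7 ± 4.09 RPKM in mCHERRY libraries. FAX1 had 42.9 ± 3.70 RPKM in GmWRI1 and 56.3 ± 5.10 RPKM in mCHERRY libraries. LACS3 had 32.7 ± 0.979 RPKM with GmWRI1 and 30.7 ± 3.82 RPKM with mCHERRY. LACS9 was the one member whose place in this order shifted by more than 1, with 60.3 ± 6.13 RPKM and rank 4 in GmWRI1 libraries, beside LACS6, against 26.7 ± 2.1 RPKM and rank 7 in mCHERRY libraries, beside LACS3. Ranges over libraries overlapped between LACS9 and LACS6 in the GmWRI1 group, and in the mCHERRY group between LACS8 and LACS6 and between LACS3 and LACS9. LACS1, LACS2 and LACS5 were at or near 0 in both groups.

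**Figure D2:**
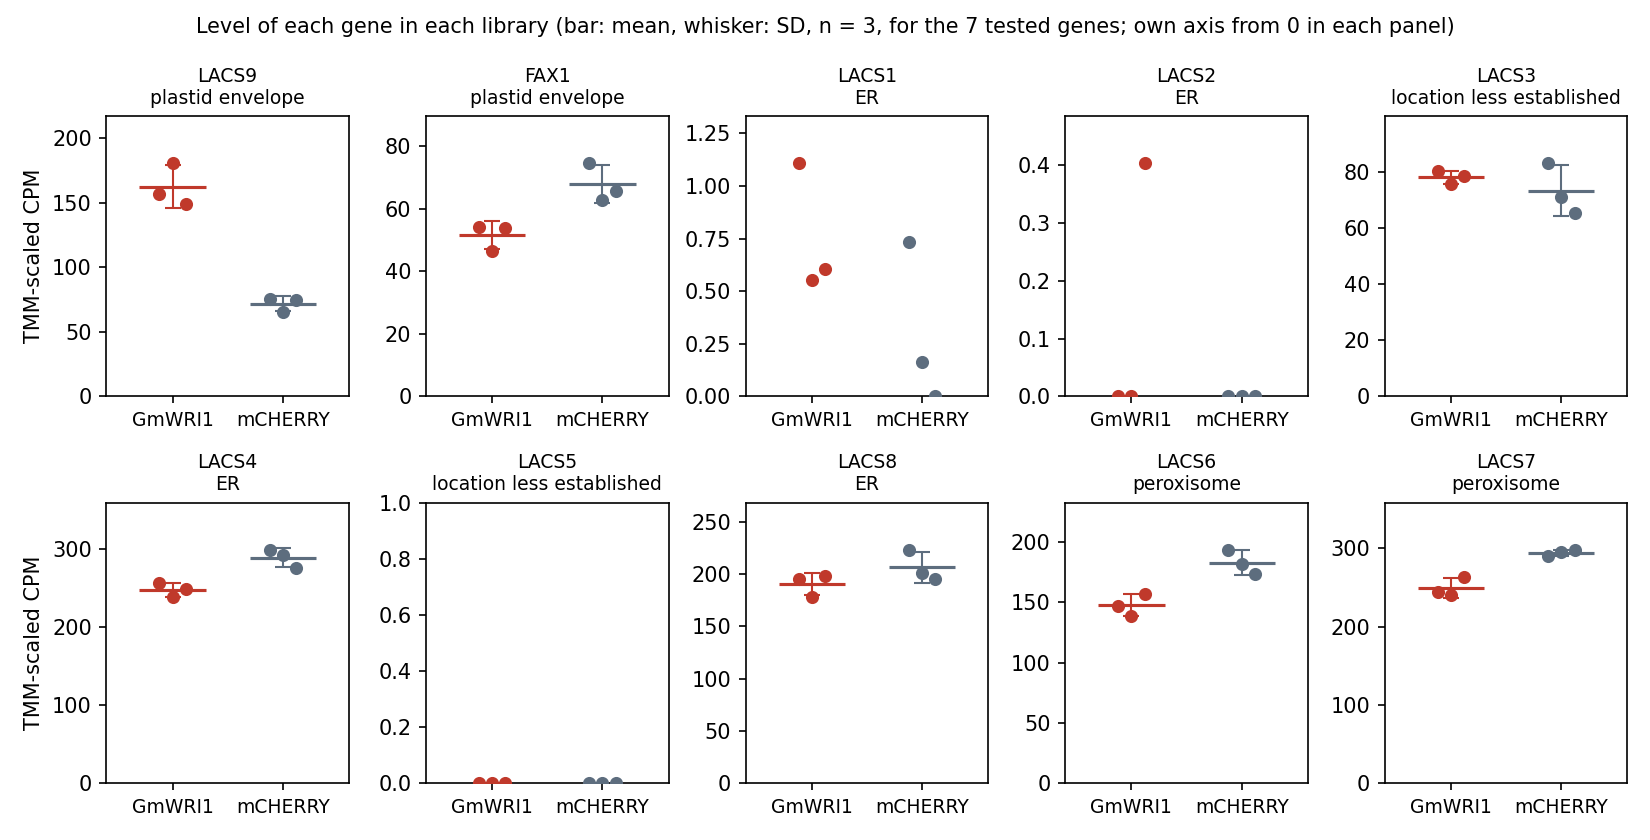
TMM-scaled CPM of each of the 10 genes in each library, with GmWRI1 left and mCHERRY right in every panel, the bar at the mean and the whisker at the SD of 3 libraries for the 7 tested genes. The LACS9 libraries run from 149.3 to 180.8 CPM in GmWRI1 and from 65.2 to 75.1 CPM in mCHERRY, whereas those of LACS3 and LACS8 overlap.

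Of the 10 loci, 7 passed the filter on low counts and were tested, each with at least 264 counts in every library. A gene was called when its Benjamini-Hochberg adjusted p was below 0.05 and its log2 fold change exceeded 1 in size (edgeR quasi-likelihood test). By this call 1 of the 7, LACS9, was up-regulated, where 9.44% of all 14762 tested genes were. By edgeR and by DESeq2, 0 of the 7 were down-regulated, where 1.45% of all tested genes were in the edgeR fit, and 4 had an unadjusted p under 0.05 in that direction. By the adjusted p alone, 1 was higher and 4 were lower in GmWRI1 libraries (LACS9, and FAX1, LACS4, LACS6 and LACS7), where 20.4% of all tested genes were higher and 14.6% lower. The same 5 genes had groups that did not overlap, a pattern that 24.9% of tested genes showed upward and 21.1% downward. The median log2 fold change was -0.22 over the 7 genes and -0.01 over all tested genes.

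The 2 members at the plastid envelope, LACS9 and FAX1, moved apart. Loci that share the annotation of FAX1 went both ways and are given below, so this is no result about export as a whole. LACS9 (AT1G77590, chromosome 1, 29148160 to 29152395, minus strand, 12 exons) had 156.7, 180.8 and 149.3 CPM in GmWRI1 libraries 1, 2 and 3, against 75.1, 65.2 and 74.96 CPM in mCHERRY libraries 1, 2 and 3. The groups were far apart, since the lowest GmWRI1 value was 98.8% above the highest mCHERRY value. LACS9 rose 2.26-fold in GmWRI1 libraries (95% interval 1.96 to 2.62, log2 fold change 1.18, SE 0.10, edgeR adjusted p = 5.58e-09). The lower end of that interval lay just under the fold limit, while the estimate stayed above the limit in all 14 alternative fits (log2 fold change 1.09 to 1.25). FAX1 (AT3G57280, chromosome 3, 21193680 to 21195790, plus strand, 6 exons) had 54.3, 46.5 and 54.0 CPM in GmWRI1 libraries and 74.7, 63.0 and 65.8 CPM in mCHERRY libraries. All FAX1 values were lower with GmWRI1 than with mCHERRY, without overlap, and FAX1 fell to 0.758-fold (95% interval 0.649 to 0.887, log2 fold change -0.40, SE 0.11, edgeR adjusted p = 0.00644). Without mCHERRY replicate 1, its highest control library, the FAX1 log2 fold change was -0.32 and the edgeR adjusted p was 0.0525.

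The ER enzymes LACS1 and LACS2, known for their roles in wax and cutin, were close to the limit of detection. In GmWRI1 libraries LACS1 (AT2G47240, chromosome 2, 19392497 to 19397907) reached 13, 4 and 3 counts, against 6, 1 and 0 counts in mCHERRY libraries. For LACS2 (AT1G49430, chromosome 1, 18290942 to 18295905) there were 0, 0 and 2 counts in GmWRI1 libraries against 0 in each mCHERRY library. Neither passed the filter, and with no filter LACS1 had an edgeR adjusted p of 0.349 and LACS2 one of 0.463, so a difference was not detectable at this depth. Reads were also at 0 in every library for LACS5 (AT4G11030, chromosome 4, 6738068 to 6742424).

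The ER enzymes LACS4 and LACS8, by contrast, were among the 3 most abundant synthetases. LACS4 (AT4G23850, chromosome 4, 12403454 to 12408421), which takes part in lipid trafficking and cuticle lipids, had 256.3, 238.5 and 249.0 CPM in GmWRI1 libraries against 299.6, 292.7 and 275.6 CPM in mCHERRY libraries. The groups did not overlap, yet the gap between them was 7.51% of the highest GmWRI1 value. LACS4 fell to 0.857-fold (log2 fold change -0.22, SE 0.09, edgeR adjusted p = 0.0470), and this pass was lost in 8 of 14 alternative fits, whose adjusted p over all 14 ran from 0.0285 to 0.152. Leaving out any single library other than mCHERRY replicate 3 ended it. The last 34 bases of LACS4 overlap the neighbouring gene AT4G23840 on the other strand, and the counting was not stated to use strand. LACS8 (AT2G04350, chromosome 2, 1515634 to 1519308) had 195.1, 178.1 and 198.2 CPM in GmWRI1 libraries against 223.3, 201.2 and 195.2 CPM in mCHERRY libraries. These groups overlapped (log2 fold change -0.12, SE 0.09, edgeR adjusted p = 0.326), and the 95% interval ran from 0.808-fold to 1.05-fold. LACS3 (AT1G64400, chromosome 1, 23915570 to 23919835) had 80.1, 75.5 and 78.3 CPM in GmWRI1 libraries and 83.2, 71.1 and 65.3 CPM in mCHERRY libraries. Its groups overlapped as well (log2 fold change 0.08, SE 0.10, edgeR adjusted p = 0.578), and the 95% interval ran from 0.912-fold to 1.23-fold. For LACS3 and LACS8 a change past the fold limit in either direction thus lay outside the interval, while smaller changes lay within it.

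Both peroxisomal synthetases were lower in GmWRI1 libraries. LACS6 (AT3G05970, chromosome 3, 1786279 to 1791887) had 147.2, 138.3 and 156.5 CPM in GmWRI1 libraries and 193.3, 181.4 and 173.2 CPM in mCHERRY libraries. LACS7 (AT5G27600, chromosome 5, 9742492 to 9747024) had 244.6, 239.9 and 263.3 CPM in GmWRI1 libraries and 290.6, 294.8 and 298.1 CPM in mCHERRY libraries. Neither gene had overlapping groups. LACS6 fell to 0.805-fold (log2 fold change -0.31, SE 0.09, edgeR adjusted p = 0.00927) and kept an adjusted p of 0.0473 or less in all 14 alternative fits. LACS7 fell to 0.846-fold (log2 fold change -0.24, SE 0.09, edgeR adjusted p = 0.0317), but this pass was lost in 7 of 14 alternative fits, of which 5 each left out 1 library (any except GmWRI1 replicate 3), and the adjusted p over all 14 ran from 0.0142 to 0.106.

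**Figure D3:**
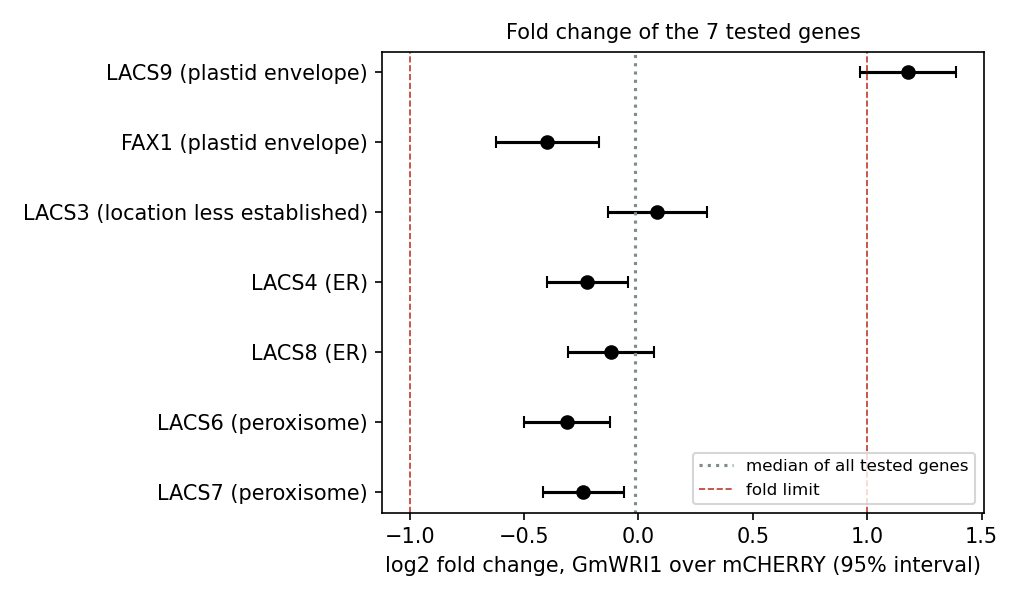
Log2 fold change of GmWRI1 over mCHERRY for the 7 tested genes, ordered by compartment, with 95% intervals, the median of all tested genes (dotted) and the fold limit (dashed). LACS9 stands at 1.18, and the other 6 lie between -0.40 and 0.08.

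The balance within the family was then measured as the share of each gene in the summed RPKM of LACS1 to LACS9, a description with no test. LACS9 made up 13.5%, 16.0% and 12.7% of LACS RNA in GmWRI1 libraries, against 5.95%, 5.44% and 6.40% in mCHERRY libraries, a mean difference of 8.13 percentage points. The peroxisomal pair made up 37.5% ± 1.28 in GmWRI1 and 43.1% ± 1.07 in mCHERRY libraries (SD, n = 3 each). LACS1 to LACS5 and LACS8 together made up 48.5% ± 1.17 in GmWRI1 and 51.0% ± 1.27 in mCHERRY libraries. The shares sum to the whole, so a higher LACS9 share by itself lowers those of the other groups. The summed level was 429.6 ± 9.49 RPKM in GmWRI1 and 449.7 ± 17.2 RPKM in mCHERRY libraries, with overlapping ranges. Without LACS9 the sums were 369.3 ± 15.6 RPKM in GmWRI1 and 423.0 ± 16.9 RPKM in mCHERRY libraries.

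**Figure D4:**
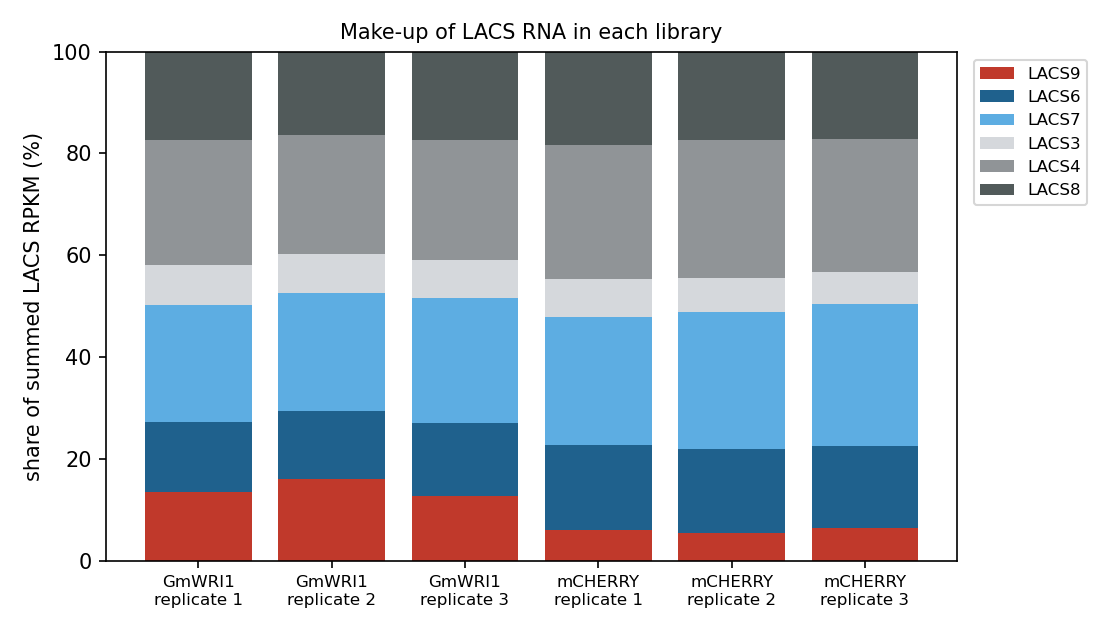
Share of each LACS gene in the summed LACS RPKM of each library, in percent, with the 3 GmWRI1 libraries left of the 3 mCHERRY libraries (LACS1, LACS2 and LACS5 are too low to be seen). The LACS9 segment spans 12.7% to 16.0% in GmWRI1 and 5.44% to 6.40% in mCHERRY libraries.

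Pairs of genes were compared within each library, which removes the scaling between libraries. LACS8, of the ER, is the closest relative of LACS9 in the family, with 67.2% identity over 2070 aligned coding bases and 12 exons in each gene. The ratio of LACS9 to LACS8 was 0.777, 0.983 and 0.729 in GmWRI1 libraries, against 0.325, 0.314 and 0.372 in mCHERRY libraries, with no overlap between the groups. The mean log2 ratio was -0.28 ± 0.23 in GmWRI1 and -1.57 ± 0.13 in mCHERRY libraries (SD, n = 3 each), a difference of 1.29 (two-sided exact permutation p = 0.1, the smallest that 3 against 3 libraries allow). LACS9 was already known to be up-regulated when this ratio was chosen, so the ratio restates that call and adds no separate support. The peroxisomal pair LACS6 and LACS7, with 72.4% identity and 23 exons in each gene, kept to one ratio more closely. It was 0.597, 0.571 and 0.589 in GmWRI1 libraries and 0.659, 0.610 and 0.576 in mCHERRY libraries, a log2 difference of -0.07 (two-sided exact permutation p = 0.4, with overlapping groups). The ratio of LACS9 to FAX1, both of the plastid envelope, was a comparison chosen after the values were seen. It was 1.29, 1.74 and 1.24 in GmWRI1 and 0.449, 0.463 and 0.509 in mCHERRY libraries, a log2 difference of 1.57. LACS9 was wholly above and FAX1 wholly below in GmWRI1 libraries before this ratio was chosen, so its separation was fixed in advance. It is given without a p and adds no separate support. The permutation p of the other ratios is not adjusted. The nearest pair in the family was LACS4 and LACS5, with 80.9% coding identity, and LACS5 was at 0 in every library. Apart from LACS1, where the share was 0.159%, no run of 36 transcript bases in a member occurred in another gene model. Only exact runs were searched, while the authors' alignment allowed mismatches, so a loss of reads between relatives was not tested.

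The steps around these enzymes were described with 6 lists, of which 41 genes were tested. Of these 9 were up-regulated and 0 down-regulated by edgeR and by DESeq2 (9 had an unadjusted edgeR p under 0.05 in that direction), each list being read beside the 9.44% and 1.45% of all tested genes. Among the 9, KCS6 and KAT5, described below, passed the filter only through their GmWRI1 levels. Counts by the adjusted p alone include the called genes. Upstream, the acyl-ACP thioesterases supply free fatty acids. Of 3 listed and tested, 2 were up-regulated, and the median log2 fold change was 3.22. FATA (AT3G25110), of the type that mainly releases oleate, had 29.3 ± 3.13 CPM in GmWRI1 and 3.24 ± 1.29 CPM in mCHERRY libraries (SD, n = 3 each, log2 fold change 3.22, edgeR adjusted p = 1.63e-10). AT4G13050, annotated as an acyl-ACP thioesterase, had 105.1 ± 4.56 CPM with GmWRI1 and 3.96 ± 0.912 CPM with mCHERRY (log2 fold change 4.67, edgeR adjusted p = 3.51e-16). FATB, the thioesterase of saturated chains, fell within the fold limit at 112.7 ± 10.4 CPM in GmWRI1 and 144.6 ± 4.60 CPM in mCHERRY libraries (log2 fold change -0.36, edgeR adjusted p = 0.00469), a change close in size to that of FAX1.

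FAX1 shares its annotation as a transmembrane protein 14C with 6 other loci, which were listed with the plastid acyl-activating enzymes AAE15 and AAE16. Of the 8 tested, 1 was up-regulated, 2 were higher and 3 lower by the adjusted p alone, where 20.4% of all tested genes were higher and 14.6% lower, and the median log2 fold change was -0.24. The up-regulated locus was AT1G33265, with 30.9, 40.2 and 34.2 CPM in GmWRI1 libraries against 2.32, 1.95 and 2.47 CPM in mCHERRY libraries, 15.6-fold higher (log2 fold change 3.96, SE 0.20, edgeR adjusted p = 1.21e-12). AT2G38550 was higher at 25.7 ± 5.25 CPM in GmWRI1 and 17.1 ± 2.72 CPM in mCHERRY libraries (log2 fold change 0.60, edgeR adjusted p = 0.00743). Other loci of this annotation were lower in GmWRI1 libraries, as FAX1 was, without overlap of the groups. These were AT1G50740 (log2 fold change -0.59, edgeR adjusted p = 0.0171) and AT3G20510 (log2 fold change -0.33, edgeR adjusted p = 0.0443). The remaining loci of this annotation, AT3G43520 (log2 fold change -0.003) and AT2G26240 (log2 fold change -0.37), had overlapping groups. AAE16, a relative of the acyl-ACP synthetase AAE15, was lower at 16.6 ± 1.38 CPM in GmWRI1 and 30.7 ± 5.16 CPM in mCHERRY libraries (log2 fold change -0.88), and passed the fold limit without mCHERRY replicate 1.

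Downstream, acyl-CoA binding proteins carry the products of these enzymes, and 1 of 6 was up-regulated (median log2 fold change 0.18). ACBP6, the small cytosolic form, had 74.0 ± 6.87 CPM in GmWRI1 and 19.0 ± 3.08 CPM in mCHERRY libraries (log2 fold change 1.98, edgeR adjusted p = 7.31e-11). ACBP3 was lower by the adjusted p alone, with a log2 fold change of -0.47. Of 9 listed acyl-CoA users of the ER, 7 were tested and 2 were up-regulated (median 0.11). LPCAT2, which exchanges acyl groups on phosphatidylcholine, had 27.6 ± 4.91 CPM in GmWRI1 and 5.75 ± 0.167 CPM in mCHERRY libraries (log2 fold change 2.27, edgeR adjusted p = 1.79e-09). DGAT2, an acyltransferase of triacylglycerol, had 16.2 ± 1.23 CPM with GmWRI1 and 6.14 ± 0.531 CPM with mCHERRY (log2 fold change 1.38, edgeR adjusted p = 5.54e-06). LPAT2 was higher by the adjusted p alone (log2 fold change 0.52), and DGAT1 passed neither limit (log2 fold change -0.26, edgeR adjusted p = 0.0571). ABCA9, a transporter reported to supply the ER with acyl substrates in seeds, was at 0 in every library.

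The cuticle genes that share substrates with LACS1 and LACS2 were likewise sparse. Of 18 listed, 5 were tested, 1 was up-regulated and the median log2 fold change was 0.25. The up-regulated gene was KCS6, a condensing enzyme of wax chain elongation, with 4.55 ± 1.28 CPM in GmWRI1 and 1.14 ± 0.275 CPM in mCHERRY libraries (log2 fold change 1.99, edgeR adjusted p = 0.000257). CYP86A2, a fatty acid hydroxylase of cutin synthesis, had a log2 fold change of 1.29 but an edgeR adjusted p of 0.0551. In mCHERRY libraries KCS6 had 8, 9 and 4 counts and CYP86A2 had 10, 1 and 3 counts. Both passed the filter only through their GmWRI1 levels, so the count and the median are no result about this list. GPAT6, an acyltransferase of flower cutin and named here after its values were seen, had 25, 25 and 4 counts in GmWRI1 libraries and 0 in each mCHERRY library, and did not pass the filter. CYP86A4, CER4, MAH1 and WSD1 were at 0 in all 6 libraries.

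The genes listed for peroxisomal import and beta-oxidation, the steps around LACS6 and LACS7, did not move with them as a group. Of 12 listed and tested, 2 were up-regulated, 6 were higher and 1 was lower by the adjusted p alone, beside 20.4% higher and 14.6% lower among all tested genes, and the median log2 fold change was 0.20. KAT5, a 3-ketoacyl-CoA thiolase, had 47.1, 59.5 and 37.2 CPM in GmWRI1 libraries against 1.83, 1.62 and 0.247 CPM in mCHERRY libraries (log2 fold change 5.09, SE 0.27, edgeR adjusted p = 1.80e-12). With 15, 10 and 1 counts in mCHERRY libraries, KAT5 passed the filter only through its GmWRI1 levels. Its value in mCHERRY replicate 3 lay under the 0.722 CPM that a count of 0 allowed there. ACX4, the acyl-CoA oxidase of short chains, had 263.8 ± 21.9 CPM in GmWRI1 and 97.1 ± 4.05 CPM in mCHERRY libraries (log2 fold change 1.45, edgeR adjusted p = 5.75e-11). The oxidases ACX3 and ACX2 were higher by log2 fold changes of 0.54 and 0.48. The 1 lower gene was PXA1, the transporter that brings acyl substrates into the peroxisome ahead of LACS6 and LACS7, with 172.0 ± 16.6 CPM in GmWRI1 and 210.4 ± 8.11 CPM in mCHERRY libraries (log2 fold change -0.29, edgeR adjusted p = 0.0185). KAT2, another of the 3 thiolases, had a log2 fold change of -0.15 and overlapping groups. The third, KAT1 (AT1G04710), was higher without overlap (log2 fold change 0.43, edgeR adjusted p = 0.0102). The list also holds the lipase SDP1 (log2 fold change 0.15, edgeR adjusted p = 0.211).

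**Figure D5:**
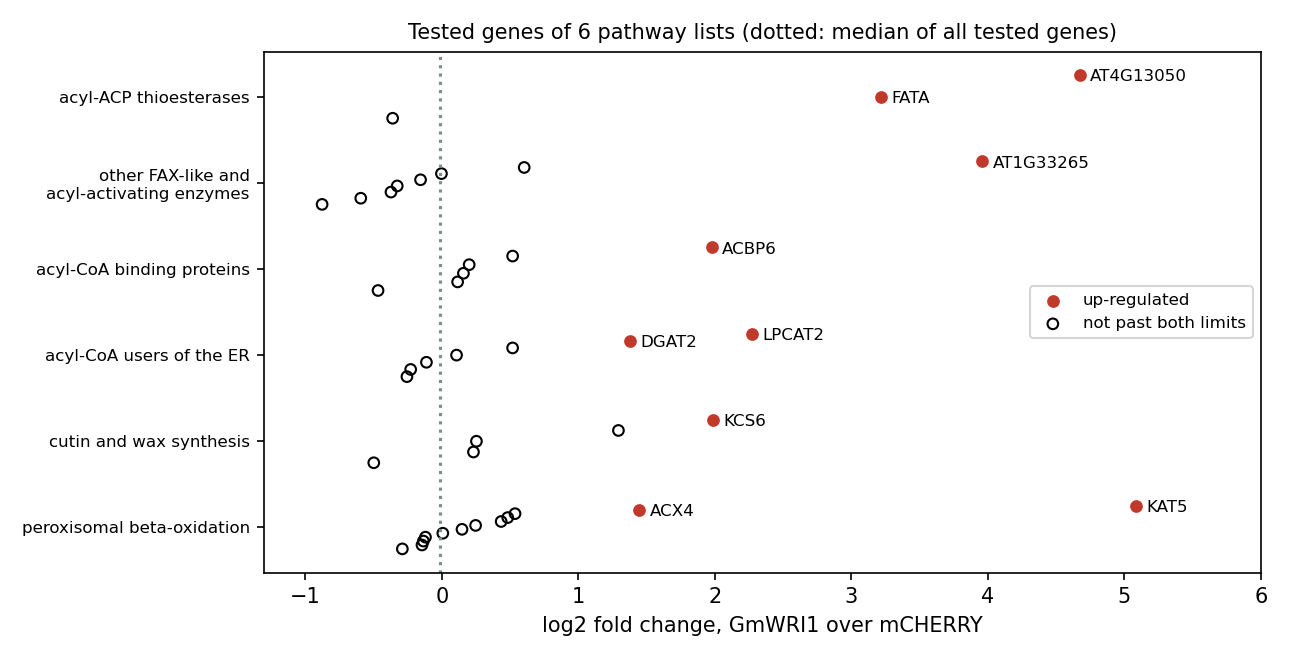
Log2 fold change of GmWRI1 over mCHERRY for the 41 tested genes of the 6 lists, 1 point per gene, with up-regulated genes filled and named and the median of all tested genes dotted. Each list holds 1 or 2 up-regulated genes, from DGAT2 at 1.38 to KAT5 at 5.09, and the other points lie between -0.88 and 1.29.

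The tested genes whose log2 CPM followed LACS9 most closely over the 6 libraries were AT3G23570 (Pearson r = 0.9997), MPL1 (AT5G14180, r = 0.9997) and Cpn60beta2 (AT3G13470, r = 0.9996), out of 14761 compared. MPL1 is a lipase named for its induction by aphids, and Cpn60beta2 is a subunit of the plastid chaperonin. Their log2 fold changes were 0.77, 4.06 and 1.80, so a like pattern did not mean a like size. The 6 points fall into 2 groups and share library scaling, and these values describe the libraries only.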

How the data were processed

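RNA was sequenced from 3 GmWRI1 and 3 mCHERRY protoplast libraries, grouped by the labels. Per the study's methods and the submitters' processing notes, the authors removed ribosomal reads, aligned the rest to TAIR10 primary transcripts with Bowtie 0.12.7, keeping reads with 1 best location, and scaled with edgeR 3.10.5. The deposited files hold raw counts per primary transcript. A line naming no gene held 39.4% to 63.3% of reads and was left out. The authors' TMM-normalized signal table was deposited as well and lists 7 of the members. It was used only to see which members it lists. Genes sharing sequence lose reads with several locations, and amplified reads are not independent molecules. The study calls the libraries biological replicates, and p-values weigh the difference between groups against the spread between libraries. In the quasi-likelihood test the spread of each gene is moderated by that of other genes, which gave the tested members 21.1 degrees of freedom.

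Counts were tested with edgeR 4.0.16 in R 4.3.3 (filterByExpr with a minimum count of 10, TMM, quasi-likelihood test, group only), with Benjamini-Hochberg adjustment over 14762 genes. Intervals are 95% from the quasi-likelihood SE and its degrees of freedom. CPM values are TMM-scaled, and RPKM divides them by transcript length. The test was checked on simulated counts with 200 changed genes, as many up as down and by larger steps than any member showed. That check does not cover small changes such as those of LACS4, LACS7 and FAX1. Sequences, gene models and coordinates are from RefSeq's TAIR10.1, and coding sequences were aligned globally with Biopython 1.88. The 10 members, all lists and the ratios were chosen with earlier results of these data known. Named genes were the 10 members and, of each list, every gene called and at most 3 others with the largest absolute log2 fold change, with exceptions said in the text. The other genes named in a list (FATB, AT3G20510, AT3G43520, AT2G26240, DGAT1, PXA1, KAT2, SDP1 and those at 0) illustrate a count or a role. AT3G48820, listed under the name of a lipase but annotated as a sialyltransferase-like protein, was left out. The alternatives were the exact and likelihood ratio tests, DESeq2 1.42.0, other scalings and filters, a replicate block and leaving out each library.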

Additional observations from a re-analysis of the deposited data

How the results depend on the processing

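LACS9 was up-regulated in all 14 alternative fits (log2 fold change 1.09 to 1.25), and no member changed direction in any of them. LACS6 kept an edgeR or DESeq2 adjusted p under 0.05 in all 14 as well. The pass of LACS4 was lost with the exact test (log2 fold change -0.22), with library size only (-0.18) and with no filter (-0.21), and that of LACS7 with library size only (-0.20) and with no filter (-0.23). More genes are tested with no filter, and otherwise the cause was not tested. Leaving out 1 library at a time gave log2 fold changes of -0.26 to -0.20 for LACS4, -0.27 to -0.22 for LACS7 and -0.46 to -0.32 for FAX1, and an adjusted p under 0.05 in 1, 1 and 5 of 6 fits. The count of up-regulated genes was 1258 to 1480 and of down-regulated genes 188 to 276 without 1 library, and 1671 and 272 with no filter. Of listed pathway genes, an alternative set chosen after seeing the data, 9 to 11 were up-regulated and 0 or 1 (AAE16, without mCHERRY replicate 1) down-regulated. The LACS9 share differed by 8.69 percentage points on raw counts. With 1000 bases after the start, 7 members held an AW Box in place of 4.

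Replicate numbers are shared between the groups, but same-numbered libraries did not deviate together (correlations of 0.103, -0.0075 and 0.043), so the numbers were not taken to pair the libraries. With the replicate number as a block, 1390 genes were up-regulated and 220 down-regulated, LACS9 had a log2 fold change of 1.18, and no member's call changed. Depth limits LACS1, LACS2 and LACS5, which held 20, 2 and 0 counts in the 3 GmWRI1 and 7, 0 and 0 in the 3 mCHERRY libraries.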
